A study of Mus musculus with 16 samples.

Results

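Promoter contacts of mouse liver at lights on (ZT0) and at lights off (ZT12) were set against each other, using every pair of DNA fragments listed as an interaction at either time. A pair was taken as unordered, and the ZT0 and ZT12 lists together held 194337 distinct pairs of the 247177 distinct pairs in the 4 lists of the series. Zeitgeber time (ZT) counts the hours since lights on, and livers were taken at ZT0, ZT6, ZT12 and ZT18. All groups were wild type C57BL/6 males, 8 week old when they began 2 weeks under 12 h of light and 12 h of dark. Food was always at hand and no other treatment was given. ZT0 and ZT12 thus differed in the time of day alone as far as the labels tell. Each time was represented by 3 pools of 2 livers, and with pool A on 2 lanes this makes 8 of the 16 samples. The pools of a time had been merged before interactions were called, which leaves 1 list per timepoint, no replicate error and no test for any difference given here. As a yardstick, the numbers of pairs and of promoter fragments that differed were also computed for the other 5 pairs of lists. Distances, gene groups and sequence motifs have no such yardstick here.

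Promoter capture Hi-C joins stretches of chromatin that lie close together in the nucleus and then pulls out, with RNA probes, the joined products that contain a promoter. Chromatin was cut with HindIII, so the unit of the assay is a HindIII fragment. A fragment that carries a promoter and was targeted by probes is called a bait, and the fragment joined to it is its other end. In liver, a transcriptional loop turns within each day: CLOCK and NPAS2 pair with BMAL1 (gene Arntl) at E-boxes and switch on the Per and Cry repressors, while ROR activators and REV-ERB repressors (Nr1d1, Nr1d2) act on Arntl. The loop passes its timing on through D-box factors (Dbp, Tef, Hlf, with Nfil3 as their opponent), and feeding, insulin and glucocorticoids add signals of their own to metabolic genes. Contact lists hold no RNA, so the liver identity of the tissue could not be checked against marker expression.

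The ZT0 list held 146262 pairs and the ZT12 list 151529, scored by CHiCAGO, which weighs the reads of a pair against those that its distance and technical noise would give. The lowest score listed was 5, so a pair called absent may lie just under that minimum. The lists hold no read counts, and a deeper library can yield more pairs. A summary table that accompanies the study gives the total of the list labelled ZT12 under ZT6, that of the list labelled ZT18 under ZT12 and that of the list labelled ZT6 under ZT18. The labels were followed, and the numbers in the ZT6 and ZT18 lists stand beside each bait named. All 129887 listed fragments were found in the mm9 reference starting with AGCTT, which is what HindIII leaves.

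Short stretches from 5 promoters with links to the clock or to glycogen, whose numbers of contacts follow, show which of 5 searched motifs stood before their starts. The Per1, Per2, Hlf, Dbp and Ppp1r3c stretches are printed 5′ to 3′ along the gene in mm9, all of them before the annotated gene start, with the motif in capitals (the E-box CACGTG in Per1 and Ppp1r3c, the D-box TTANGTAA in Per2, the ROR element TAGGTCA in Dbp and the cyclic AMP response element TGACGTCA in Hlf).
Per1, chr11:68908539-68908604, plus strand: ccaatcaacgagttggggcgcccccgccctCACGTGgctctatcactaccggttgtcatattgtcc
Per2, chr1:93355989-93356056, minus strand: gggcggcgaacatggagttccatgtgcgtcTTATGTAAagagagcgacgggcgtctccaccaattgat
Hlf, chr11:90252232-90252270, minus strand: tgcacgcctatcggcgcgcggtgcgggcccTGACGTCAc
Dbp, chr7:52960239-52960305, plus strand: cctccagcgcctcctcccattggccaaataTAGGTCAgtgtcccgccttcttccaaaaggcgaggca
Ppp1r3c, chr19:36811163-36811228, minus strand: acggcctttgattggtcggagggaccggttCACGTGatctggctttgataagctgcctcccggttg
A pair of contacted fragments, listed at ZT12 and absent at ZT0, shows what lies at the other end of such a contact. The first lies in an intron of Ghr and the second upstream of Lpin1, and capitals mark the letters left by HindIII.
Fragment contacted by Ghr, chr15:3327093-3327324, plus strand: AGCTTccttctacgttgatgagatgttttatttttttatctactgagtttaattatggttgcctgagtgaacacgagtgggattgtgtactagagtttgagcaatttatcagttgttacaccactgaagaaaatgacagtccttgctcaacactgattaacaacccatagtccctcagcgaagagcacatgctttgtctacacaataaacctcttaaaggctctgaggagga
Fragment contacted by Lpin1, chr12:16650538-16650762, plus strand: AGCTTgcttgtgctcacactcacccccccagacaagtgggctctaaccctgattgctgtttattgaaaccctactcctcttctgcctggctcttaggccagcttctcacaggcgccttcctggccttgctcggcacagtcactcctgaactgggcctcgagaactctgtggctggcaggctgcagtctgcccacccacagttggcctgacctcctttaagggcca
Neither fragment held any of the 5 motifs. The Ghr fragment scored 7.31 at ZT12 and 5.4 at ZT6 and was not listed at ZT18. The Lpin1 fragment scored 6.22 and was listed at ZT12 only.

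The first comparison asked how many contacts the liver had at one time of day and lacked 12 h later. The ZT0 and ZT12 lists shared 103454 pairs, which is 70.7% of the ZT0 list and 68.3% of the ZT12 list. Of 72562 pairs with a score of 7 or more at ZT0, 7775 were absent at ZT12, which is 10.7% (95% Wilson interval 10.5 to 10.9%). Of 76144 such pairs at ZT12, 8961 were absent at ZT0, which is 11.8% (11.5 to 12.0%). The intervals cover counting error only, and the contacts of one bait may depend on each other. Both directions together gave 16736 pairs. ZT6 and ZT18, the other lists 12 h apart, gave 17008, and the 4 pairs of lists 6 h apart gave 14484 to 16587. By this count, lists 12 h apart had the 2 highest values, though by a small margin, and the baits below did not follow that order. Without replicates the gap cannot be set against the spread between pools.

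Absence followed the score closely. From a score of 7 to below 8, 23.5% of the ZT0 pairs were absent at ZT12 and 26.3% of the ZT12 pairs were absent at ZT0. At a score of 10 or more, absence had shrunk to 749 pairs, or 2.34%, and to 761 pairs, or 2.26%. The median score was 7.85 for the pairs of ZT0 absent at ZT12 and 7.81 for those of ZT12 absent at ZT0, against 10.6 at ZT0 for the 52249 pairs that reached 7 in both lists. For 78.6% of the former and 79.7% of the latter, the other list still held a contact of the same bait whose other end lay within 10 kb. The lists the rule did not use held many of these pairs. Of the pairs found at ZT0 and not at ZT12, 57.4% were listed at ZT6 and 53.1% at ZT18, and of those found at ZT12 and not at ZT0, 59.2% were listed at ZT6 and 61.3% at ZT18. In neither of these lists were 2091 pairs of ZT0 (26.9%) and 1976 pairs of ZT12 (22.1%), against 0.507% of the pairs with 7 or more in both.

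Among pairs within a chromosome that were found at ZT0 and absent at ZT12, the highest score belonged to the promoter of Vwa5b2 (chr16:20587427-20591120). Its contact with the promoter of the microRNA gene Mir1224, 11.9 kb away, scored 44.4 at ZT0 and was listed at no other time. The same bait contacted Camk2n2, an inhibitor of the calcium/calmodulin kinase CaMKII, with 20 at ZT0 only, and Eif2b5, a subunit of the translation initiation factor eIF2B, with 19.6 at ZT0 and 7.94 at ZT6. Vwa5b2 had 10 contacts at ZT0, 2 at ZT6 and none at ZT12 or ZT18, and 9 of its 10 ZT0 contacts scored 7 or more. The promoter of Ugt1a1, which makes the enzyme that conjugates bilirubin, contacted an exonic fragment of Heatr7b1 44.7 kb away with 24.1 at ZT0, 23.2 at ZT6 and 29.4 at ZT18, so that pair was missing from the ZT12 list alone. Eif2ak3, the PERK kinase of the endoplasmic reticulum stress response, contacted a fragment of its own gene 11.8 kb away with 20.7 at ZT0 and 8.72 at ZT6. The promoters of Ankhd1 and of Ndufa2 and Ik, 185 kb apart, scored 20.1 at ZT0, 22.6 at ZT6 and 7.44 at ZT18. A contact of Vstm2b with Gm16387 over 1640.2 kb scored 19.3 at ZT0 and 7.23 at ZT18. Ndufa6, a subunit of respiratory complex I, contacted AC113593.1 at 53.3 kb with 18.9 at ZT0 and 35.1 at ZT6. The 10 highest pairs within a chromosome also held Heatr7b1 with the same exonic fragment (20.4) and the small RNA genes SNORA42 and SNORA43 (19.1).

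Among pairs within a chromosome that were found at ZT12 and absent at ZT0, the 3 highest joined a bait with a U6 gene (chr19:37305176-37313419) to neighbouring fragments in exons of Btaf1, an ATPase that removes TATA-binding protein from DNA. They scored 39.2, 33.5 and 30.4 at ZT12 over 264 to 268 kb, and up to 10.5 at ZT18. Fgfbp3, a binding protein of fibroblast growth factors in the same stretch of chromosome 19, contacted an intron of Kif11, the kinesin that separates spindle poles, 459 kb away with 22.2 at ZT12 and 6.82 at ZT18. The promoter of Syngr3, a synaptic vesicle protein, contacted that of the snoRNA host gene Snhg9 at 37.2 kb with 23.8 and at ZT12 only. Epn1, an endocytic adaptor, and Zfp444 scored 20.3 over 1092 kb, with 10.7 at ZT6 and 6.32 at ZT18. Ercc1, a nuclease subunit of DNA repair, contacted an exon of Pvrl2 with 19.8 at ZT12, 12.8 at ZT6 and 8.74 at ZT18. Clasrp contacted an exonic fragment of Tomm40 104 kb away with 17.6 at ZT12, 5.67 at ZT6 and 9.07 at ZT18. Neu4, a sialidase, contacted an exonic fragment of Gm16026 10643 kb away with 19.4 at ZT12, 11.6 at ZT6 and 12.3 at ZT18. The next highest after the U6 pairs, of Lpin1, is described with its neighbours.

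Contacts between chromosomes were few, 26 of the pairs found at ZT0 and absent at ZT12 and 15 of the reverse. Both highest at ZT0 joined fragments at the Sfi1 locus of chromosome 11 to an exonic fragment of Gm2420 on chromosome 5, with scores of 595 and 164 at ZT0 and 579 and 171 at ZT6, and neither was listed at ZT12 or ZT18. The highest at ZT12 joined Phxr4 on chromosome 9 to an intergenic fragment of chromosome 1 and scored 30.8 at ZT12, 12.8 at ZT6 and 13.1 at ZT18. Whether such fragments share sequence was not tested here.

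Pairs found at ZT0 and absent at ZT12 spanned longer distances than the reverse, and both sets spanned longer distances than pairs with 7 or more in both lists. The median distance between fragment midpoints was 231 kb (95% interval 226 to 236 kb) for pairs of ZT0 absent at ZT12, 184 kb (179.7 to 189 kb) for pairs of ZT12 absent at ZT0 and 130 kb (129 to 131 kb) for pairs with 7 or more in both. Over 150 kb lay 72.1%, 59.1% and 43.4% of them. In proportion, the sets were farthest apart from 25 to 50 kb, with 189 pairs of ZT0 (2.44%) against 570 of ZT12 (6.37%). Promoter-promoter pairs, with a bait at both ends, made up 17.8% and 18.0%, against 19.5% of the pairs with 7 or more in both, so the kind of other end hardly separated the sets. The other ends that are not baits had a median length of 2249 bp and 43.8% GC in the ZT0 set, 1896 bp and 45.3% GC in the ZT12 set and 2250 bp and 45.1% GC in the shared set. The part of fragment length and base composition in the difference of distances was not tested.

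**Figure D1:**
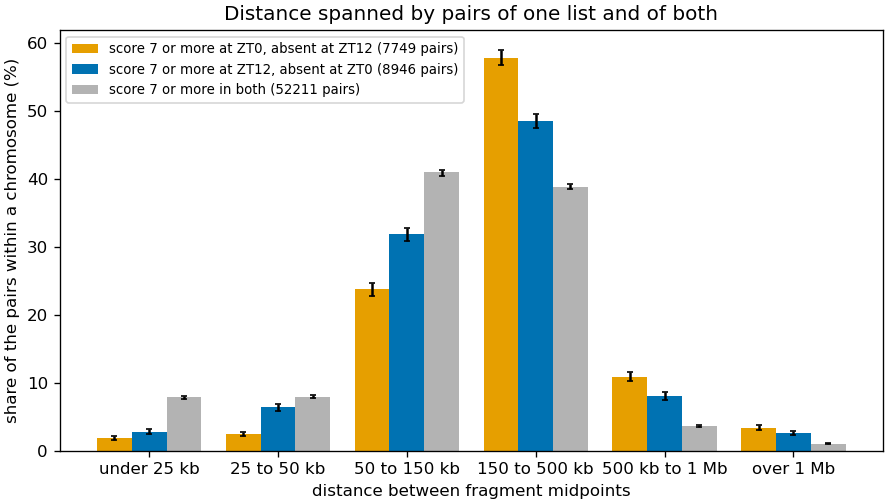
Share of pairs within a chromosome (vertical axis, percent) by the distance between fragment midpoints (horizontal axis), for pairs with a score of 7 or more at ZT0 and absent at ZT12, the reverse, and pairs with 7 or more in both; error bars are 95% Wilson intervals, which cover counting error only. The ZT0 bars lie above the ZT12 bars in each class beyond 150 kb, and the shared pairs lead in each class up to 150 kb.

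The second comparison asked which promoters had more contacts at one time than at the other. Of 18165 baits, 366 (2.01%) had at least 10 contacts more at ZT12 and 217 (1.19%) had at least 10 more at ZT0. With a difference of at least 5, these were 1563 (8.6%) and 1023 (5.63%), and with any difference 7744 (42.6%) and 6398 (35.2%), while 4023 were equal. Scaled to equal list totals, 248 and 254 baits differed by at least 10, so the surplus of baits higher at ZT12 was not seen on that scale. Both directions together gave 583 baits at least 10 apart, within the 383 to 613 of the other 5 pairs of lists. The highest, 613, came from ZT6 and ZT12, which lie 6 h apart, and ZT6 and ZT18 gave 603. The SD of the difference across baits was 3.7 contacts here and 3.26 to 3.91 in the other pairs of lists. Baits at least 10 apart were rich in contacts, with a median of 30 (mean of both times), against 5 for all baits. The 366 baits higher at ZT12 had medians of 22, 28, 35 and 30 contacts at ZT0, ZT6, ZT12 and ZT18, and the 217 higher at ZT0 had 39, 33, 27 and 32. The ZT0 and ZT12 values of these baits chose them and are given as a description. At ZT6 and ZT18, which did not, both numbers lay between those of ZT0 and ZT12 for 200 of the 366 and for 114 of the 217. Choosing a wide gap by itself favours other lists lying inside it, so these counts are a description too.

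**Figure D2:**
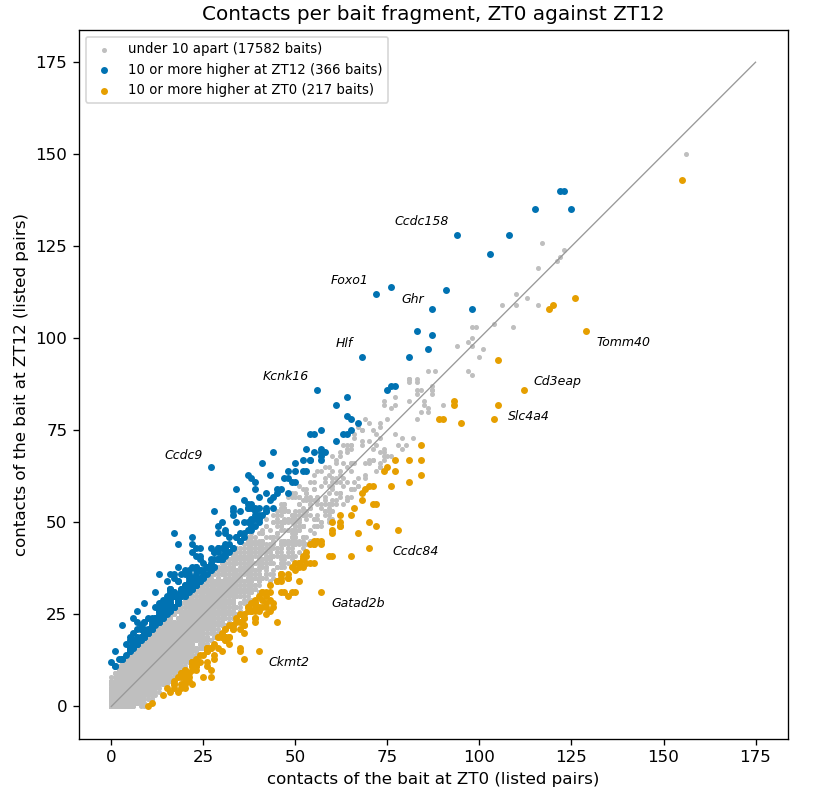
Contacts of each of 18165 bait fragments at ZT0 (horizontal axis) and at ZT12 (vertical axis), in listed pairs, with the diagonal of equal numbers. Baits at least 10 apart are coloured, 366 above the diagonal and 217 under it, and some of those with the largest difference are named; points at the same place overlap.

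The promoter of Foxo1, the transcription factor that drives glucose production in the fasting liver and that insulin holds out of the nucleus, had the largest difference. Its bait (chr3:52070559-52076693) had 72, 96, 112 and 88 contacts at ZT0, ZT6, ZT12 and ZT18. Of the 112, 66 were also listed at ZT0 and 46 were not, and 22 of the 46 scored 7 or more, against 2 such pairs of ZT0. All 46 lay downstream of the gene start, as did the 66 shared ones, between 67.1 and 712 kb away, and 29 lay within 10 kb of a fragment that Foxo1 contacted at ZT0. The contacts kept over the 12 h had median scores of 7.72 at ZT0 and 10.1 at ZT12. Of the 66, 47 had the higher score at ZT12. These scores come from the same lists that chose the bait, so they describe it and are no separate support.

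Ghr, the growth hormone receptor, had 76, 105, 114 and 90 contacts at ZT0, ZT6, ZT12 and ZT18. Of the 45 found at ZT12 and not at ZT0, 24 lay in the gene itself and 17 scored 7 or more. Hlf had 68, 85, 95 and 79 contacts at ZT0, ZT6, ZT12 and ZT18. All 30 of its contacts found at ZT12 and not at ZT0 lay within 10 kb of a fragment it contacted at ZT0. In each of Foxo1, Ghr and Hlf the ZT12 list was the highest, ZT0 the lowest, and ZT6 above ZT18.

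The remaining baits among the 10 with the largest difference toward ZT12 were mixed in function. The fragment that carries the starts of Ccdc9 and of Bbc3, a pro-apoptotic target of p53, had 27, 56, 65 and 56 contacts at ZT0, ZT6, ZT12 and ZT18. Kcnk16, a potassium channel, had 56, 59, 86 and 54 contacts in the same order. Serpina3i, one of the serpin protease inhibitors of chromosome 12, had 18, 22, 44 and 29. Kcnk16 was therefore high in the ZT12 list only, while the Ccdc9 and Bbc3 fragment was low in the ZT0 list only. Six5, a homeobox factor, had 37, 32, 63 and 58 contacts at ZT0, ZT6, ZT12 and ZT18, and Ccdc158 had 94, 104, 128 and 109. Of the genes with no role given here, 4930562C15Rik had 17, 28, 47 and 28 contacts and Gm17664 had 28, 59, 53 and 27, the latter with its highest number at ZT6.

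Toward ZT0, the largest difference was that of 2700060E02Rik, with 78, 52, 48 and 58 contacts at ZT0, ZT6, ZT12 and ZT18. Gatad2b, a subunit of the NuRD chromatin remodelling complex, had 57, 46, 31 and 51 contacts. Klf3, a zinc finger repressor, had 72, 56, 49 and 65, and all 26 of its contacts found at ZT0 and not at ZT12 lay upstream, at -507 to -61.0 kb from the gene start, the same side as its 46 shared contacts. In all of these the ZT12 list was the lowest of the 4 and the ZT0 list the highest. Slc4a4, a sodium bicarbonate cotransporter, had 105, 103, 82 and 103 contacts at ZT0, ZT6, ZT12 and ZT18, so it was low at ZT12 only. Ckmt2, the mitochondrial creatine kinase of muscle, had 40, 36, 15 and 25, and its 30 contacts found at ZT0 and not at ZT12 lay upstream, at -1158 to -778 kb, as its 10 shared contacts did.

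For 3 of these baits another list was more extreme. Ccdc84 had 70 contacts at ZT0 and 43 at ZT12 with only 27 at ZT6, and the fragment of Cd3eap, a subunit of RNA polymerase I, and Ppp1r13l, an inhibitor of p53, had 112, 62, 86 and 109 contacts at ZT0, ZT6, ZT12 and ZT18. Tomm40, the protein import channel of the outer mitochondrial membrane, had 129, 137, 102 and 111 in the same order. The 93 contacts Tomm40 kept had a median score of 12.0 at ZT0 and 8.73 at ZT12, and 72 of them scored higher at ZT0. Those scores, too, come from the lists that chose the bait. The last places went to 4933433C11Rik, with 65, 50, 41 and 58 contacts, and to the protocadherin gene Pcdhb3, with 45, 35, 23 and 30.

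**Figure D3:**
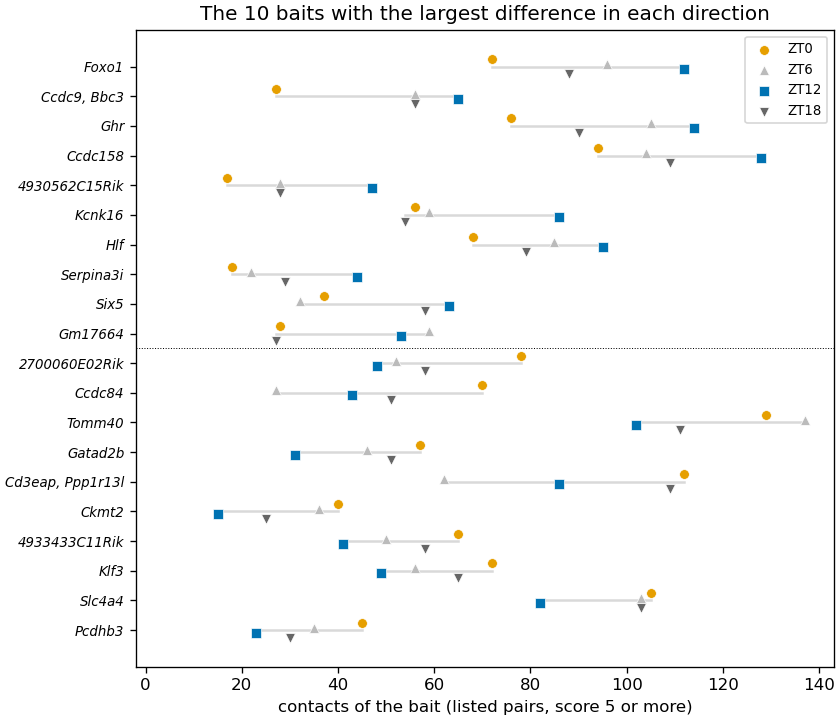
Contacts of the 10 baits with the largest difference toward ZT12 (above the dotted line) and toward ZT0 (under it), with 1 symbol for each of the 4 lists, set slightly apart within a row; there are no error bars since each time has 1 pooled list. ZT0 and ZT12 chose these baits, and ZT6 or ZT18 lay outside the span of ZT0 and ZT12 for Kcnk16, Six5, Gm17664, Ccdc84, Tomm40 and the Cd3eap fragment.

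A few promoters with modest numbers of contacts had blocks of neighbouring fragments that were listed at ZT12 and scarcely at ZT0. Lpin1 makes a phosphatidate phosphatase, an enzyme on the path to triglycerides that also acts as a transcriptional coregulator. Its bait (chr12:16596399-16597111) had 2, 4, 10 and 10 contacts at ZT0, ZT6, ZT12 and ZT18. The fragment 40.1 kb upstream of the start scored 5.24, 5.84, 26 and 11.6 at ZT0, ZT6, ZT12 and ZT18. Its neighbour 45.6 kb upstream was not listed at ZT0 and scored 5.15 at ZT6, 23.9 at ZT12 and 10.7 at ZT18. In both, ZT12 stood far above the rest and ZT18 came next.

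Fkbp5, a cochaperone of the glucocorticoid receptor and a gene that glucocorticoids induce, was chosen after its values were seen. It had 8, 9, 22 and 15 contacts at ZT0, ZT6, ZT12 and ZT18. Of its 16 contacts found at ZT12 and not at ZT0, 15 lay inside the gene, and 11 scored 7 or more. The highest, in an intron 63.5 kb downstream of the start, scored 15.4 at ZT12, 6.03 at ZT6 and 6.66 at ZT18. Within the gene, the contacts of ZT0 all lay at the far end, 94.5 to 113 kb from the start, with scores of 5.66 to 8.22. A contact with the promoter of Tulp1, 155 kb downstream, scored 7.83 at ZT0 and was absent at ZT12.

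**Figure D4:**
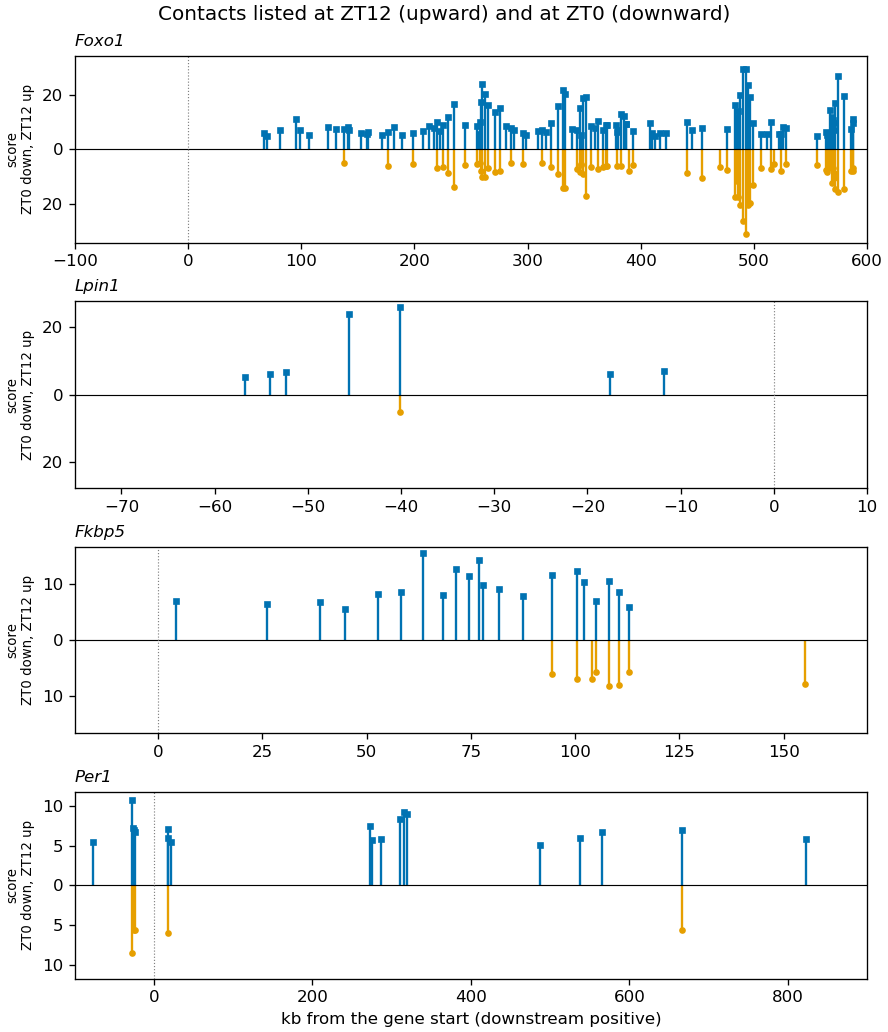
Scores (vertical axis) of the contacts of Foxo1, Lpin1, Fkbp5 and Per1 against the distance of the contacted fragment from the gene start (horizontal axis, kb, downstream positive), with ZT12 drawn upward and ZT0 downward; contacts beyond an axis are not drawn (the farthest of Foxo1, Lpin1 and Fkbp5), and a missing stem means that no score was listed. At Lpin1 and Fkbp5 most stems point upward only, while the Foxo1 peaks are present at both times.

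Among the core clock promoters, which had at most 19 contacts in any list, Per1 and Per2 differed most. Per1, whose repressor protein closes the clock loop, had 5, 7, 19 and 12 contacts at ZT0, ZT6, ZT12 and ZT18. All 5 contacts of ZT0 were kept, each with a higher score at ZT12, and the 14 others included the promoter of the histone demethylase gene Kdm6b, 319 kb downstream, which scored 8.97 at ZT12, 6.01 at ZT6 and 6.18 at ZT18. Per2, its partner, had 9, 10, 19 and 13 contacts at ZT0, ZT6, ZT12 and ZT18. All 9 of ZT0 were kept with higher scores at ZT12, and 7 of the 10 others lay within 10 kb of a contact of ZT0. The 10 others scored 6.46 at most, so none reached 7, while 5 of the 14 of Per1 did. The strongest contact of Per2, with the promoter of Hes6, stayed at 14.6, 16.2, 18.0 and 15.8 over the 4 lists. In both genes ZT12 was the highest list and ZT0 the lowest.

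Of the other core clock genes, Npas2, a partner of BMAL1, had 14, 8, 8 and 12 contacts at ZT0, ZT6, ZT12 and ZT18, and so went the other way. Cry2 had 5, 12, 7 and 7 and Nr1d1 had 6, 10, 9 and 8, both differing by under 5. Arntl had 3 contacts at ZT0 and 2 at ZT18 and none at ZT6 or ZT12. The text of the study gives the same numbers for these times, so for this gene it matches the labels of the lists. Per3 had 4, 6, 4 and 3, Nr1d2 had 2, 3, 1 and 1, Cry1 had 1, 2, 0 and 0, and Clock had a single contact, at ZT18. No bait held the start of Rora. Over the 11 promoters, 5 had more contacts at ZT12 and 4 at ZT0, with a median difference of 0, as for all baits.

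Of 10 promoters of clock-controlled transcription factors and related genes, 7 had more contacts at ZT12 and 1 at ZT0, with a median difference of 5.5 contacts against 0 over all baits. Besides Hlf, Bhlhe40, which represses E-box genes, had 108, 106, 128 and 113 contacts at ZT0, ZT6, ZT12 and ZT18. Dbp had 11, 25, 24 and 19 and Tef had 9, 18, 17 and 17, so these were low in the ZT0 list rather than high in the ZT12 list. Dbp lies in a stretch of chromosome 7 where 42 of 55 baits had more contacts at ZT12 than at ZT0. Nfil3 had 35, 38, 42 and 32. Bhlhe41, the close relative of Bhlhe40, was the 1 member with more contacts at ZT0, with 14, 4, 8 and 3 at ZT0, ZT6, ZT12 and ZT18. With a score of 7 or more it had 1 contact at ZT0 and 2 at ZT12, so its direction turned. At that score, Nfil3 had 24 at both times and Klf9 had 22 at both, so their surplus at ZT12 was gone. Hlf (40 at ZT0 and 60 at ZT12), Bhlhe40 (74 and 96), Dbp (3 and 15), Tef (2 and 10) and Wee1 (3 and 9) still had more at ZT12.

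**Figure D5:**
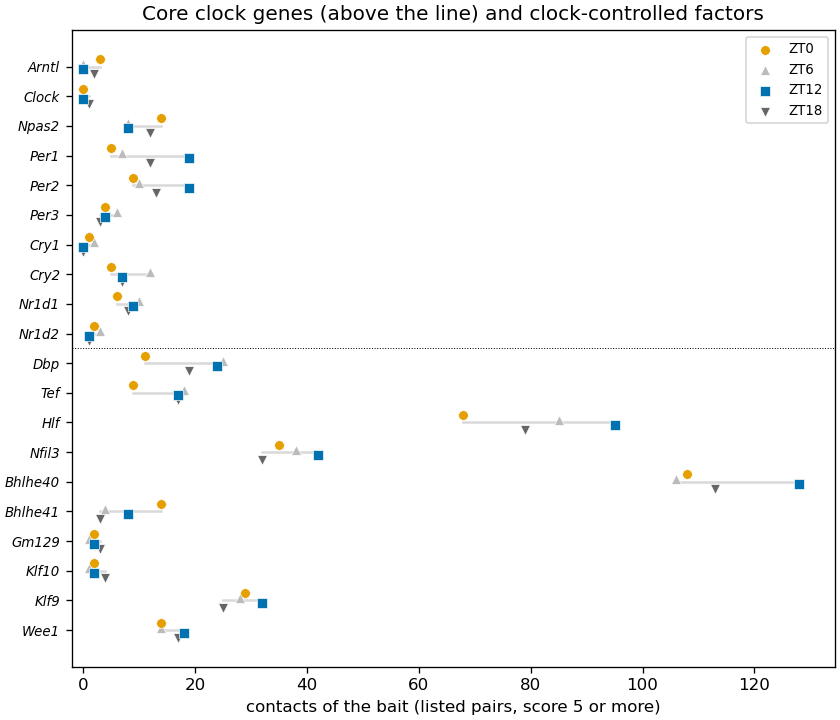
Contacts of 10 core clock promoters (above the dotted line) and 10 promoters of clock-controlled factors and related genes, with 1 symbol for each of the 4 pooled lists, set slightly apart within a row, and no error bars. Per1, Per2, Hlf and Bhlhe40 have their highest number at ZT12, and Npas2 and Bhlhe41 have theirs at ZT0.

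Metabolic promoters were read against the 42.6% of all baits with more contacts at ZT12 and the 35.2% with more at ZT0. Among 14 promoters of bile acid synthesis and transport, 5 had more at ZT12 and 5 at ZT0. Nr5a2, the nuclear receptor LRH-1 that drives bile acid genes, had 37, 56, 54 and 52 contacts at ZT0, ZT6, ZT12 and ZT18, and the bile acid receptor gene Nr1h4 had 28, 26, 23 and 30. Among 14 promoters of cholesterol synthesis and uptake, 9 had more at ZT12 and 4 at ZT0. Idi1, the isopentenyl diphosphate isomerase, had 6, 4, 18 and 12, while Sqle, the squalene epoxidase, had 14, 12, 8 and 8.

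Among 16 lipogenesis promoters, 9 had more contacts at ZT12 and 5 at ZT0. Dgat1, which completes triglycerides, had 35, 41, 53 and 53 contacts at ZT0, ZT6, ZT12 and ZT18, and Acaca, the carboxylase that commits carbon to fatty acids, had 20, 12, 14 and 20, but 1 at ZT0 and 3 at ZT12 with a score of 7 or more. Among 16 promoters of glucose and glycogen genes, 9 had more at ZT12 and 3 at ZT0. Gsk3a, a kinase that inhibits glycogen synthase, had 29, 43, 47 and 41, while Ppp1r3c, which brings a phosphatase to glycogen and turns its synthesis on, had 60, 53, 50 and 58. Gsk3a and Ppp1r3c were named for the largest difference in each direction, 18 and -10 contacts, so their opposite signs were fixed by that choice. Among 14 promoters of fatty acid oxidation and ketogenesis, 7 had more at ZT12 and 4 at ZT0, with Ppara, the nuclear receptor of fasting, at 6, 9, 17 and 19. Of 16 xenobiotic and heme promoters, 8 had more at ZT12 and 5 at ZT0, led by the carboxylesterase gene Ces1g with 21, 43, 36 and 29. The heat shock list, in which Hspd1 and Hspe1 share a bait, was the only metabolic or stress list with more members higher at ZT0, 5 against 4 of 12.

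The share with more contacts at ZT12 was above that of all baits for hepatocyte identity genes, with 13 of 19 promoters (68.4%) against 2 with more at ZT0. Tdo2, which starts tryptophan breakdown, had 7, 24, 18 and 8 contacts at ZT0, ZT6, ZT12 and ZT18, and Cebpa, a hepatocyte transcription factor, had 27, 32, 33 and 36. For growth and cell cycle genes it was 14 of 19 (73.7%) against 1. Besides Ghr, Jun, a subunit of AP-1, had 42, 74, 58 and 55 contacts, with its highest number at ZT6, and Bcl6, a repressor, had 29, 31, 40 and 30. Ccnd1, the G1 cyclin, was the 1 member higher at ZT0, at 38, 38, 33 and 35. Genes of other tissues, chosen as a contrast, had 5 of 12 promoters higher at ZT12 (41.7%) and 3 higher at ZT0. A list's share also depends on how many of its baits are rich in contacts, since baits with few contacts are often equal, and that part was not tested.

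Circadian genes were grouped by acrophase, the time of peak RNA as the study assigned it. The study picked them from its own RNA measurements, so they are not independent evidence of a direction. Of 436 promoters with acrophase ZT12, 249 (57.1%) had more contacts at ZT12 and 109 had more at ZT0, with a median difference of 1 contact. Of 197 promoters with acrophase ZT0, 90 (45.7%) had more at ZT12 and 72 (36.5%) more at ZT0, with a median difference of 0, close to the 42.6% and 35.2% of all baits. Promoters with acrophase ZT18 had 53.1% with more at ZT12, and those with acrophase ZT6 had 46.3%. Summed over the 436 promoters, contacts were 4705, 5244, 5356 and 5119 at ZT0, ZT6, ZT12 and ZT18. Over all baits, the sums were 170304, 178403, 176485 and 176541 in the same order. The ZT0 sum was thus the lowest in both, and the part of list size in the low ZT0 sum was not tested.

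With a difference of at least 10, 18 of the 436 promoters of acrophase ZT12 were higher at ZT12 (4.13%) and 2 at ZT0 (0.459%), against 2.01% and 1.19% of all baits. For acrophase ZT0 it was 2 of 197 (1.02%) in each direction. Bhlhe40 and Gsk3a were among the 18. Trpm7, an ion channel with a kinase domain, had 17, 29, 36 and 25 contacts, lowest at ZT0 and highest at ZT12. St3gal5, which makes the ganglioside GM3, had 37, 48, 54 and 32. Higher at ZT0 were Akr1c12, an aldo-keto reductase, with 57, 60, 45 and 53, and Ugt2b34, a glucuronosyltransferase, with 45, 31, 34 and 40. Of acrophase ZT0, Rnf125, a ubiquitin ligase, had 24, 20, 14 and 22 contacts and was lowest at ZT12, as was Ppp1r3c. Against that, Nme2, a nucleoside diphosphate kinase, had 54, 65, 67 and 63 and Lrp5, a Wnt coreceptor, had 6, 17, 16 and 12. Baits with a circadian gene were 30 of the 366 higher at ZT12 (8.2%) and 10 of the 217 higher at ZT0 (4.61%), against 6.15% of all baits.

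The promoter windows were searched for clock and stress motifs on both strands, from 250 bases before to 50 bases after each protein-coding gene start. None of the 5 motifs contains another. The set of all windows also holds gene starts that lie on no bait, which neither bait set could include. The E-box stood in 8.74% of 366 windows on baits at least 10 contacts higher at ZT12 (95% Wilson interval 6.26 to 12.1%), in 9.95% of 201 windows on baits higher at ZT0 (6.53 to 14.9%) and in 7.78% of all 22367 windows. The D-box stood in 1.37%, 1.99% and 2.18%, and the ROR element in 1.37%, 0.995% and 2.41%. The cyclic AMP response element TGACGTCA stood in 3.83%, 3.48% and 2.32%, and the heat shock element GAANNTTC in 6.28%, 5.47% and 7.56%. For each motif, the intervals of both bait sets overlapped. Baits higher at ZT12 had a median GC content of 49.9% and those higher at ZT0 of 46.8%, against 47.2% of all baits, and the part of GC content in the numbers of contacts was not tested.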

How the data were processed

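Promoter capture Hi-C libraries of mouse liver were mapped to mm9 and filtered with HiCUP by the authors, who merged the pools of each timepoint and called interactions with CHiCAGO; versions are not given in the sources used here. Each pair carries a CHiCAGO score as deposited by the authors, and 5 was the lowest. Here the ZT0 and ZT12 lists were compared as sets of unordered pairs in python 3.11.15 (numpy 2.4.6, pandas 2.3.3), Wilson intervals were computed with scipy 1.17.1 and figures drawn with matplotlib 3.10.9. Contacts of a bait were counted from both ends of each pair, and fragments listed in the bait column of any list were taken as baits. Gene starts came from the GENCODE annotation and sequences from the reference genome, both of build mm9. Counting was checked on simulated lists.

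Samples were grouped by their labelled timepoint. Named genes are the 10 baits per direction with the largest difference that hold a protein-coding start, the 10 highest-scoring pairs per direction within a chromosome and 3 between chromosomes, all core clock genes, the members of other lists and circadian genes that differ by at least 5 contacts (the 5 largest per direction), and genes at the other ends. Members and gene lists were chosen with earlier results of these data known, and Fkbp5, Ilkap, Ide, the Btaf1 stretch, the histone promoters and the windows of neighbours were added after their values were seen. Acrophases of circadian genes were taken from the study (1136 of 1256 had a bait, and 10 baits with genes of several acrophases were left out). No alternatives beyond those planned were run. RNA levels and read counts were not analysed here. Some members of these lists are not reported here by name.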

Additional observations from a re-analysis of the deposited data

How the results depend on the processing

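No paired analysis was possible because pools with a common letter had been merged into 1 list per timepoint, and for the same reason no replicate could be left out. The share of the ZT0 list absent at ZT12 was 29.3%. It was 28.0% at a score of at least 7 in both lists, 27.5% at 10, 30.5% with both lists cut to an equal number of top-scoring pairs, 29.0% with the list named ZT18 read as ZT12, and 8.73% with another end within 10 kb accepted. For the ZT12 list, absent at ZT0, it was 31.7%, and 31.4%, 31.1%, 30.5%, 31.4% and 9.63% under the same settings. The 7775 and 8961 pairs absent from the other list became 3406 and 3859 at a score of at least 8, 749 and 761 at 10, and 1663 and 1817 when no other end could lie within 10 kb. Baits at least 10 apart, 366 and 217, became 144 and 76 among pairs with a score of at least 7, and 1563 and 1023 or 94 and 52 with a difference of at least 5 or 15. The share of acrophase ZT12 promoters with more contacts at ZT12 moved from 57.1% to 45.6% at a score of at least 7, where that of all baits was 33.0%. The share over 150 kb became 81.2% (ZT0) and 66.6% (ZT12) at a score of at least 10, and 61.1% (ZT12) with the list named ZT18 read as ZT12. The fewer pairs left by a stricter score lower such counts by construction. The cause of the other changes was not tested.

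Of 95 named promoters, the difference kept its direction in 95 when scaled, in 82 at a score of at least 7 and in 85 with the list named ZT18 read as ZT12. Most were named for a difference of at least 5 contacts and both list totals were close, so scaling could hardly turn a direction. With the list named ZT18 read as ZT12, the difference turned to -2 for Kcnk16, -1 for Gm17664, -3 for Nfil3, -5 for St3gal5, 2 for Nr1h4, 1 for Acox2 and 1 for Ddit3. At a score of at least 7, the difference turned to 2 for Acaca, Elovl5, Rrm2, Sars and Ticam1, 1 for Bhlhe41, 1 for Ddit3, -1 for Apob and -6 for Ttr. All values rest on lists cut at a score of 5, with no depth and no replicate error.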

Other observations

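Some stretches of the genome held several baits that differed by at least 10 contacts. The 583 such baits fell in 356 windows of 1 Mb, of which 45 held at least 3 and the other windows held fewer. Of the 45, 21 held both directions. All 8 such baits at chr9:106-107 Mb and all 10 at chr7:31-32 Mb, a stretch with the fatty acid receptor genes Ffar1 and Ffar3, had more contacts at ZT12. Over the 51 baits of the latter, contacts summed to 1776, 1765, 1972 and 2001 at ZT0, ZT6, ZT12 and ZT18. The window chr11:99-100 Mb, which holds many genes of keratins, structural proteins of epithelia and hair, mostly went the other way. Of its 64 baits, not all of keratin genes, 44 had more contacts at ZT0 and 13 at ZT12, and the sums were 1313, 1220, 1103 and 1179. At least 10 apart were 10 baits toward ZT0 and 2 toward ZT12, among the latter the keratin gene Krt28. Tomm40 and Clasrp lie in a window of chromosome 7 where 5 baits were at least 10 higher at ZT12 and 4 at ZT0. Baits of a window can contact each other and the same fragments.

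The promoters of replication histone genes, which are packed in clusters, also had more contacts at ZT0, as did neighbours without a histone gene. Over all 31 baits of chr13:23-24 Mb, which holds several of these genes, 23 had more contacts at ZT0 and 4 at ZT12. The baits of Btn1a1 and Slc17a1 there differed by -12 and -15 contacts (ZT12 minus ZT0). Whether the histone promoters differed from their neighbours was not tested. Of 36 histone promoters, picked after their values were seen, 25 had more at ZT0 and 6 more at ZT12, against 35.2% and 42.6% of all baits. The median difference was -3.0 contacts, and 5 of the 36 were at least 10 higher at ZT0, against 1.19% of all baits. Baits at least 10 apart were rich in contacts (median 30, against 5 for all baits), and histone promoters contact each other. The part of either in these numbers was not tested. Their contacts summed to 1423, 1444, 1277 and 1375 at ZT0, ZT6, ZT12 and ZT18, so the ZT12 list was the low one. Of 258 listed pairs of 2 histone promoters at ZT0, 21 scored 7 or more and were absent at ZT12, and of 234 at ZT12, 9 scored 7 or more and were absent at ZT0.

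A stretch of chromosome 19 stood out at ZT12, and was looked at after its pairs had led the list. Between chr19:36991113-37088547, which holds Fgfbp3 and Btaf1, and chr19:37305176-37496349, which holds Ide and Kif11, there were 6, 8, 38 and 10 pairs at ZT0, ZT6, ZT12 and ZT18. Of these, 1, 3, 21 and 3 scored 7 or more. Fgfbp3 had 2, 3, 13 and 1 contacts at ZT0, ZT6, ZT12 and ZT18. Ide, the insulin-degrading enzyme, had 7 at ZT12, all with a score under 7, and none in the other lists. Whether 1 of the 3 pools carried these contacts could not be seen in a merged list.

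Some baits had no contact in 1 of the lists compared. There were 22 baits with none at ZT0 and at least 5 at ZT12, and 15 with the reverse. Ilkap, the neighbour of Per2, led the former with 0, 2, 12 and 8 contacts at ZT0, ZT6, ZT12 and ZT18, and Vwa5b2 led the latter.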
